A study of Mus musculus with 7 samples.

Results

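The genes Slc12a2, Slc12a4, Slc12a5 and Slc12a7 encode cation-chloride cotransporters, membrane proteins that carry chloride together with potassium or sodium. They were taken by name, as 4 of the 8 Slc12a genes described here and of 21937 mouse genes in a deposited table. The series compared A2lox mouse embryonic stem cells (129/Ola background) with and without expression of the neuronal transcription factor NeuroD1 from a doxycycline-inducible transgene. The induced group is 2 RNA libraries of cells given doxycycline at 500 ng/ml for 48 h, and the uninduced group is 2 RNA libraries of the same transgenic line without the drug. Both groups carried the transgene and were grown in serum and LIF after removal of the feeder cells. A library with the drug and no transgene was not among those described in the labels, so effects of doxycycline and of NeuroD1 cannot be told apart. The series also has NeuroD1 chromatin immunoprecipitation samples and an input sample, which were not analysed here.

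Chloride transport sets the direction of the response to GABA, the main inhibitory transmitter of the adult brain. NKCC1, the product of Slc12a2, brings chloride into the cell together with sodium and potassium, whereas the potassium-chloride cotransporters KCC1 (Slc12a4), KCC2 (Slc12a5) and KCC4 (Slc12a7) carry it out. KCC2 is made mainly by neurons, and its rise during maturation, with a fall of NKCC1 activity, turns GABA from a depolarising into a hyperpolarising signal. KCC1 is widely expressed and acts in cell volume control, and KCC4 is known from epithelia of the kidney and the inner ear.

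The sequences just before the RefSeq start sites are shown because NeuroD1 binds E-boxes (CANNTG) and because Slc12a5 differed in direction from the other members. Each is the 250 bases before a start site in GRCm38.p6, from RefSeq, read 5′ to 3′ along the strand of the gene, with each CANNTG in capitals. The first Slc12a5 window lies at chr2:164960596-164960845 and the second, for a start site further into the gene, at chr2:164967738-164967987, both on the plus strand. The Slc12a7 window, for the more downstream of 2 overlapping start sites, lies at chr13:73763447-73763696 on the plus strand, and that of Slc12a4 at chr8:105966116-105966365 on the minus strand.
Slc12a5, first start: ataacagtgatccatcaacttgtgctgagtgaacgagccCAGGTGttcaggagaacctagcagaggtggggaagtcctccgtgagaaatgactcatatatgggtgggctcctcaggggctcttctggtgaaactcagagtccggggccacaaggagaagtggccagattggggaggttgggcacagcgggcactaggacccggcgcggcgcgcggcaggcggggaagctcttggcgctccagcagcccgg
Slc12a5, second start: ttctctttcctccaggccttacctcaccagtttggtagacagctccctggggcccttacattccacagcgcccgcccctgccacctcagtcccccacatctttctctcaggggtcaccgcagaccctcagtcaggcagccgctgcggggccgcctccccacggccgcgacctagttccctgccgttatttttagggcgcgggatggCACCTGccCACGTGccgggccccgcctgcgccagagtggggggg
Slc12a7, downstream start: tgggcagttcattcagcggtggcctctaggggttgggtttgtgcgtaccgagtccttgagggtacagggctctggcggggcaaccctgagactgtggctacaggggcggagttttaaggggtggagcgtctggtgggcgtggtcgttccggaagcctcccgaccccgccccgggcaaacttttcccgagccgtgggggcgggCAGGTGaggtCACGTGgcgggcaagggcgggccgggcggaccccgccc
Slc12a4: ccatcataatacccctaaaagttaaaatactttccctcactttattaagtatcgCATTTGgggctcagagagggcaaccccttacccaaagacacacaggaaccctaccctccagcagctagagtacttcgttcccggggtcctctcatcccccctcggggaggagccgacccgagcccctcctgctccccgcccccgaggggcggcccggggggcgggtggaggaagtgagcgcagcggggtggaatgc

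Windows of these 3 genes were matched by symbol, and none is shown for Slc12a2. Every window printed held at least 1 CANNTG, which was also the case for 66.2% of the 32807 RefSeq windows of the same length. The E-box CAGATG, searched on both strands and a form of CANNTG, was in none of the windows printed; it was in the window of the more upstream Slc12a7 start, as CATCTG beginning 219 bases before that start, and in 14.5% of all windows. CAGCTG and CACGTG are forms of CANNTG that read the same on both strands. CAGCTG, present in 13% of all windows, was in none of the windows of the members searched. CACGTG, the E-box form bound by USF factors, began 36 bases before the second Slc12a5 start and 38 bases before the downstream Slc12a7 start, and was in 6.02% of all windows. A match to GCGNGGGCG on either strand, the form bound by Egr factors, was found in none of the windows of the members searched and in 4.7% of all windows. These matches are letters only, and binding at them was not measured here.

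The neuronal KCC2 gene Slc12a5 was the 1 member that rose after induction, and the other 3 members fell. The values are the authors' group means of normalized read counts, which carry no spread between libraries, and the p-values are those the authors obtained with DESeq, adjusted after Benjamini and Hochberg over 18283 genes. With an adjusted p of 0.05 as threshold all 4 members passed, and so did 35.5% of all genes with a p-value. Rises made up 19.1% and falls 16.4% of those genes. The share depends on the level. Of 4172 genes averaging 1000 normalized reads or more, where Slc12a2, Slc12a4 and Slc12a7 lie, 52.5% passed. As shares of the 4172, 25.9% were higher and 26.6% lower. Among the 2671 genes whose mean was within 2-fold of that of Slc12a5, 44.6% passed, 24.9% higher and 19.7% lower. Calls are thus common among genes of these levels. The labels do not say whether replicate libraries are from different cultures, so the spread behind each p may be technical.

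**Figure D1:**
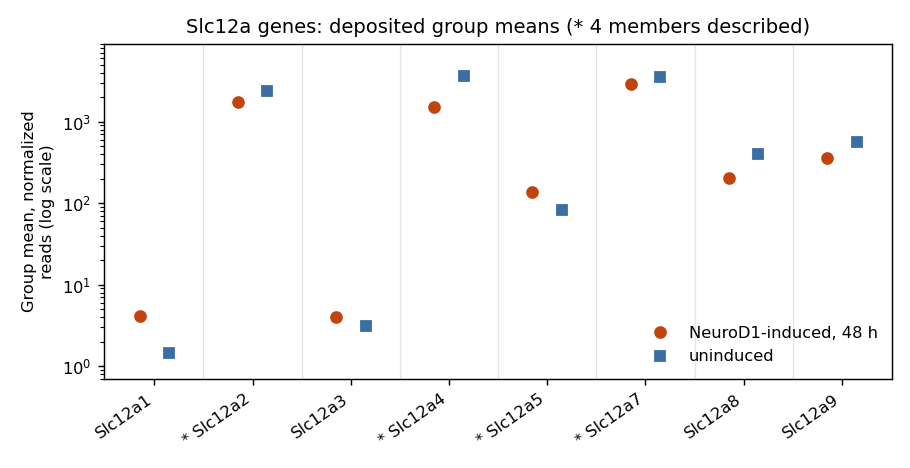
Authors' group means of normalized reads (log axis) for 8 Slc12a genes, circles for NeuroD1-induced and squares for uninduced cells; stars mark the 4 members. Slc12a5 lies higher in induced cells at 139 against 82.8 normalized reads, whereas Slc12a2, Slc12a4 and Slc12a7 lie lower; the table gives means only, so no error bar is drawn.

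Among the chloride importers, Slc12a2 averaged 1742 normalized reads in induced cells and 2395 in uninduced cells in the authors' deposited table. This is a fold of 0.727 (adjusted p = 4.8e-07). An approximate 95% interval of the fold, obtained from the authors' log2 fold change and p on a normal scale, runs between 0.648 and 0.816. Of the genes tested, 24% had a lower log2 change than Slc12a2.

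Among the chloride extruders, Slc12a5 averaged 139 normalized reads in induced cells and 82.8 in uninduced cells in the authors' deposited table, a fold of 1.68 (adjusted p = 0.0066). Its approximate interval, between 1.21 and 2.33, is the widest of the 4, and its counts are the lowest. Of the genes tested, 83.4% had a lower log2 change. The table counts reads per gene, so products of its separate start sites, whose upstream sequences are printed above, were not distinguished.

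Slc12a4, the KCC1 gene, had the largest change of the 4 members. Its means were 1519 normalized reads in induced cells and 3596 in uninduced cells in the authors' deposited table, a fold of 0.422 (adjusted p = 2.3e-49). The approximate interval runs between 0.378 and 0.472 and does not overlap those of the other 3 members. Of the genes tested, 9.27% had a lower log2 change. Slc12a4 was also the only one of the 4 members past both the threshold and a 2-fold change, which 11.7% of all tested genes were.

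Slc12a7, the KCC4 gene, changed least. The authors' deposited table gives 2910 normalized reads in induced cells and 3492 in uninduced cells, a fold of 0.833 (adjusted p = 0.0028). Its approximate interval, between 0.75 and 0.926, overlaps that of Slc12a2. Whether the changes of these 2 genes differ was not tested. Of all tested genes 32.8% had a lower log2 change than Slc12a7.

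**Figure D2:**
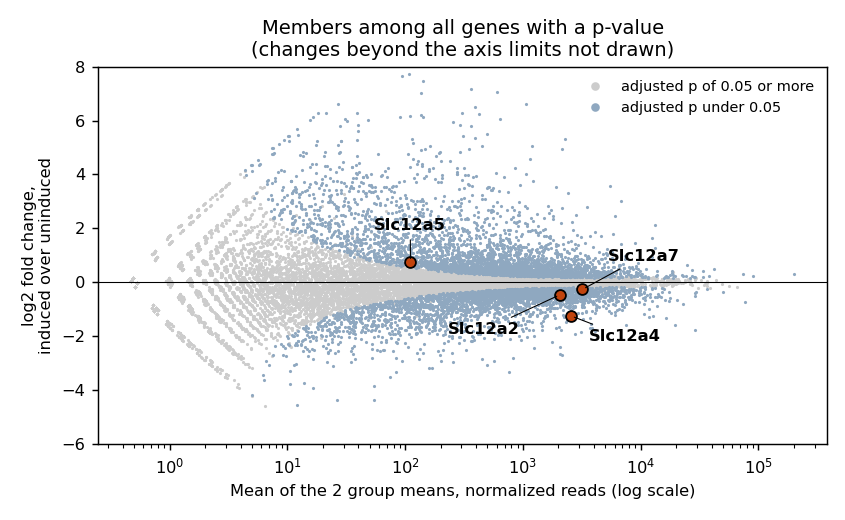
Log2 fold change, induced over uninduced, against the mean of both group means on a log axis; each dot is a gene with a p-value and finite change, coloured by the authors' adjusted p. The 4 members are outlined: Slc12a4 lies lowest at -1.24, Slc12a2 and Slc12a7 at -0.46 and -0.26 among genes of like level, and Slc12a5 at 0.75 near a mean where fewer reads were counted.

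The opposite directions changed the proportions between members. Reads of Slc12a5 per read of Slc12a2 were 0.0799 in induced cells and 0.0346 in uninduced cells from the authors' deposited table, a 2.31-fold higher ratio. The change of a ratio does not depend on gene length. On the log2 scale with a pseudocount of 1 the changes of Slc12a5 and Slc12a2 differ by 1.20, with an approximate standard error of 0.25 if the errors of both genes are independent. No test of that difference was made. Against Slc12a4 the ratio of Slc12a5 was 3.98-fold higher, at 0.0916 in induced cells and 0.023 in uninduced cells in the authors' deposited table. Within the extruders, the ratio of Slc12a4 to Slc12a7 reads was 0.522 in induced cells and 1.03 in uninduced cells in the authors' deposited table.

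Levels of different genes were set side by side as normalized reads per kb of exon, using GRCm38.p6 RefSeq transcripts for the lengths, since the authors' gene models are not given in the sources used here. In induced cells the order by this level was Slc12a7 at 560, Slc12a4 at 396 and Slc12a2 at 267, and Slc12a5 stood at 22.5 reads per kb. In uninduced cells Slc12a4 led at 939, followed by Slc12a7 at 672 and Slc12a2 at 367, and Slc12a5 stood at 13.4 reads per kb. The first and second places thus exchanged between the groups, whereas Slc12a5 stayed below every other member in both. Exon lengths from GENCODE M21 gave the same orders. Neighbours in these orders were not tested against each other, since the table has no spread.

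**Figure D3:**
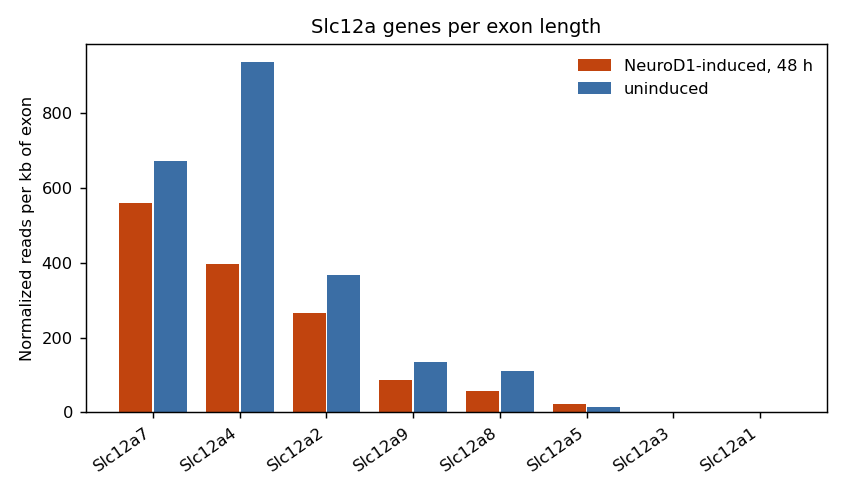
Normalized reads per kb of RefSeq exon (linear axis) for 8 Slc12a genes, NeuroD1-induced bars left of uninduced bars. Slc12a4 leads in uninduced cells at 939 and stands at 396 in induced cells, and Slc12a5 is a low bar in both groups at 22.5 in induced and 13.4 in uninduced cells; bars are single group means without error.

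Summed over the 8 Slc12a genes described, the level was 1391 reads per kb in induced cells and 2239 in uninduced cells. Slc12a5 made up 1.62% of that sum in induced cells and 0.598% in uninduced cells. Slc12a4 made up 28.5% in induced cells and 41.9% in uninduced cells, and Slc12a7 40.3% in induced cells and 30% in uninduced cells. The share of Slc12a2 was 19.2% in induced cells and 16.4% in uninduced cells. Shares depend on the sum, which was lower in induced cells. The shares of Slc12a7 and Slc12a2 were therefore higher there although the reads per kb of both genes were lower. The lower sum also enters the change in the Slc12a5 share. These shares of single group means carry no error and were not tested.

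The other Slc12a genes divided into a pair that fell and a pair that did not pass. Of these 4 genes 0 rose by the authors' DESeq test, also at an unadjusted p under 0.05. By adjusted p, rises made up 19.1% and falls 16.4% of all tested genes. The distant family members Slc12a8 and Slc12a9 fell, to 204 normalized reads in induced cells, against 402 in uninduced cells, for Slc12a8 (adjusted p = 1.3e-09) and to 358 in induced cells, against 558 in uninduced cells, for Slc12a9 (adjusted p = 3e-06) in the authors' deposited table. Slc12a1 and Slc12a3, which act in salt uptake by the kidney tubule, were near 0, with 4.08 and 3.99 normalized reads in induced cells and 1.47 and 3.15 in uninduced cells in the authors' deposited table (adjusted p of 0.68 for Slc12a1 and 1 for Slc12a3).

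Kinases that switch these transporters were counted next. WNK kinases activate SPAK (Stk39) and OSR1 (Oxsr1), which phosphorylate NKCC1 to activate it and the KCC proteins to inhibit them, and Cab39 is a scaffold of SPAK and OSR1. Of 7 genes in the table, 3 rose, 0 fell and 4 did not pass by the authors' DESeq test, with a median log2 change of 0.39, against -0.009 over all tested genes. At an unadjusted p under 0.05, 1 gene, Oxsr1, was lower. By adjusted p, 19.1% of all tested genes rose and 16.4% fell. Stk39 rose in the authors' deposited table, to 328 normalized reads in induced cells, against 195 in uninduced cells (adjusted p = 2.1e-05). Cab39 rose 1.31-fold (adjusted p = 8.4e-05) and Wnk2 1.35-fold (adjusted p = 0.0066) in the authors' deposited table. In the authors' deposited table Oxsr1 had 1173 normalized reads in induced cells and 1336 in uninduced cells, which did not pass after adjustment (adjusted p = 0.1). Wnk1, the authors' deposited table shows, had 9497 normalized reads in induced cells and 9181 in uninduced cells (adjusted p = 0.74). The folds in the authors' deposited table were 1.45 for Wnk4 (adjusted p = 0.17) and 1.13 for Cab39l (adjusted p = 0.25), neither past the threshold. Wnk3 was not matched in the authors' deposited table by its symbol or a RefSeq synonym, so no value is given for it. Phosphorylation, which sets transporter activity, was not measured.

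**Figure D4:**
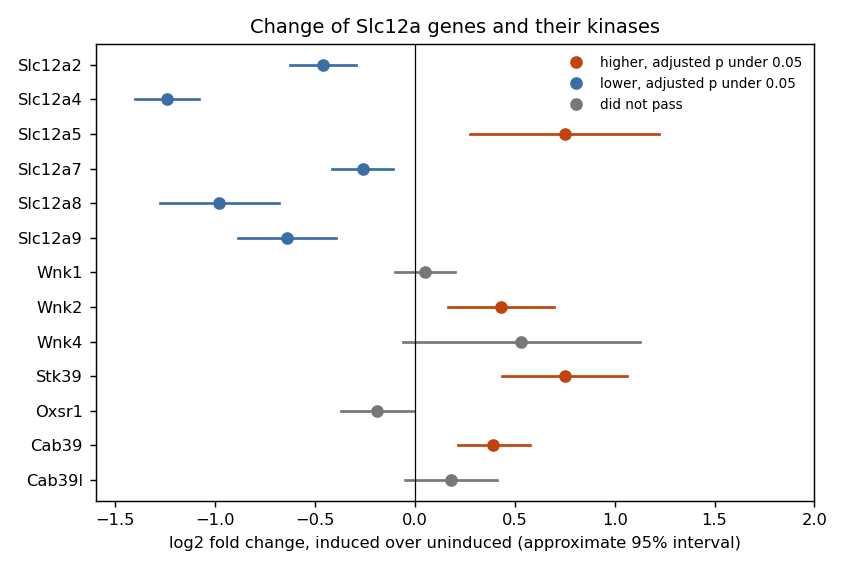
Log2 fold change, induced over uninduced, with its approximate 95% interval for 6 Slc12a genes and 7 kinase pathway genes with a mean of at least 50 normalized reads; colours give the authors' call. Slc12a5, Wnk2, Stk39 and Cab39 lie to the right of 0, and the intervals of Wnk1, Wnk4 and Cab39l include 0.

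Genes reported to regulate KCC2 expression or to bind the protein rose in 4 of 9 cases, fell in 3 and did not pass in 2, with a median log2 change of -0.18. Over all tested genes 35.5% passed, 19.1% higher and 16.4% lower, and the list was chosen with earlier results known. Rest, a repressor of neuronal genes that also acts on Slc12a5, fell to 1781 normalized reads in induced cells, against 2706 in uninduced cells, in the authors' deposited table (adjusted p = 7.6e-12). Arhgef7, whose product beta-PIX binds KCC2 at dendritic spines, rose 1.47-fold (adjusted p = 1.3e-10) in the authors' deposited table. Neto2, whose product is an auxiliary protein of KCC2, rose 1.86-fold (adjusted p = 8.4e-07) in the authors' deposited table. Usf1, named here for the CACGTG match after its value was seen, rose 1.34-fold (adjusted p = 2.3e-05) in the authors' deposited table. Egr4, named for the GCGNGGGCG search in the same way, did not pass in the authors' deposited table, which lists it at 0 in induced cells and at 2.47 normalized reads in uninduced cells (adjusted p = 0.44).

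The sodium pump makes the sodium and potassium gradients that drive these cotransporters. Of 11 genes of pump subunits and their FXYD regulators 2 rose, 5 fell and 4 did not pass, with a median log2 change of -0.11. The shares over all tested genes were 19.1% higher and 16.4% lower. In the authors' deposited table Fxyd6 fell to 2210 normalized reads in induced cells, against 4725 in uninduced cells (adjusted p = 4.2e-42), and Atp1b1, a beta subunit, to 0.423 times its uninduced mean (adjusted p = 1.1e-19). Atp1b3 fell to 0.803 times its uninduced mean (adjusted p = 0.00037) in the authors' deposited table.

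Other carriers of chloride and bicarbonate passed about as often as the 35.5% of all tested genes. Of 10 Slc4 genes, which encode bicarbonate transporters and relatives, 1 rose, 3 fell and 6 did not pass (median log2 change -0.20). Slc4a11 fell to 180 normalized reads in induced cells, against 687 in uninduced cells (adjusted p = 3.6e-39), and Slc4a5 to 0.419 times its uninduced mean (adjusted p = 1.9e-11) in the authors' deposited table. Slc4a4, a sodium bicarbonate cotransporter, rose 1.6-fold (adjusted p = 0.00019), and Slc4a8 fell to 0.778 times its uninduced mean (adjusted p = 0.0022) in the authors' deposited table. Of 8 Clc chloride channel and transporter genes 1 rose, 2 fell and 5 did not pass (median log2 change -0.16). Clcn3, of endosomes, fell to 0.605 times its uninduced mean (adjusted p = 5.8e-20) and Clcn7, of lysosomes, to 0.661 times (adjusted p = 4.3e-05) in the authors' deposited table. Clcn4-2 rose 1.39-fold (adjusted p = 0.00091) in the authors' deposited table.

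The receptors, enzymes and carriers of GABA and glycine, on which chloride gradients act, had 3 rises and 5 falls among 24 tested genes, and 16 did not pass (median log2 change -0.36). Another 3 genes of that list were at 0 in both groups. For comparison, 19.1% of all tested genes rose and 16.4% fell. Glra1, a glycine receptor subunit, rose to 247 normalized reads in induced cells, against 10.9 in uninduced cells, in the authors' deposited table (adjusted p = 1.5e-50). Abat, which breaks down GABA, rose 2.6-fold (adjusted p = 3.4e-17) in the authors' deposited table. The GABA-A receptor subunit gene Gabrb2 had 22.3 normalized reads in induced cells and 1.47 in uninduced cells in the authors' deposited table (adjusted p = 0.0001).

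**Figure D5:**
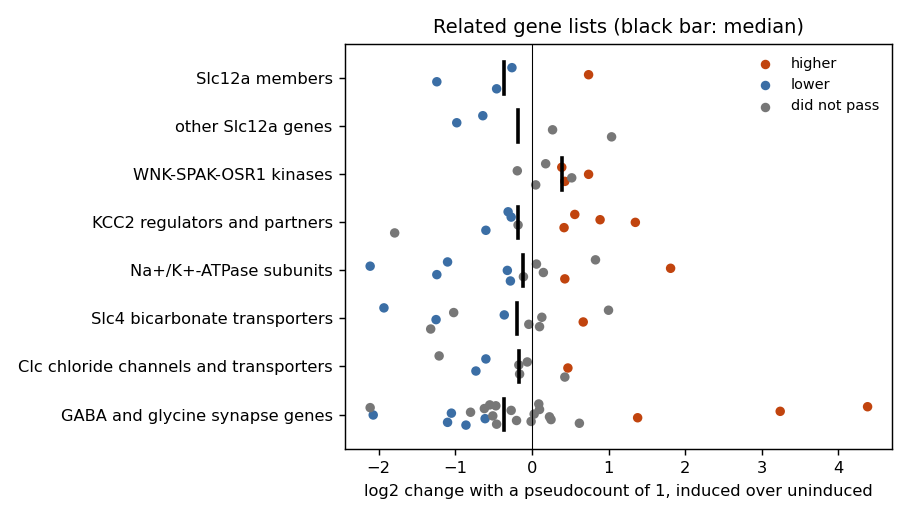
Log2 change with a pseudocount of 1, induced over uninduced, for each tested gene of the 4 members and 7 related lists; each dot is a gene, coloured by the authors' call, and the black bar is the list's median. The medians run between -0.36, for the members and for the GABA and glycine genes, and 0.39 for the WNK-SPAK-OSR1 genes, and each list has genes on both sides of 0.

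The genes with the most similar pair of group means were found by distance in log2(mean + 1) over the 2 groups, among all 18283 genes. Nearest to Slc12a5 were Tcta, Fgf13 and Dok1, at distances of 0.019, 0.027 and 0.037. Slc12a2 had Tmem165, Dse and Tpp1 within 0.022. Slc12a7 had Lasp1, Kif1a and Jub within 0.029, and among these Kif1a, an axonal kinesin gene with a fold of 0.829, did not pass in the authors' deposited table (adjusted p = 0.36). Slc12a4 had no gene as near, with Slc29a1, Bst2 and Ldhb at 0.126, 0.169 and 0.203. With only 2 group means per gene, likeness says no more than that level and fold were close.

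The labels and the cell types that the cultures could hold were checked on the same means. Neurod1 itself had 4371 normalized reads in induced cells and 438 in uninduced cells in the authors' deposited table, and reads of transgene and endogenous gene were not separated. Beside the marker counts that follow, 19.1% of all tested genes rose and 16.4% fell by the authors' adjusted p. All 7 neuron markers rose, with a sum of 19207 normalized reads in induced cells and 5349 in uninduced cells. Of 7 stem cell markers 6 fell and 1 did not pass (sums of 28161 in induced and 50297 in uninduced cells), and all 6 epithelial markers fell (12025 in induced and 37905 in uninduced cells). Fibroblast markers, which stand for feeder cells, had 2 rises and 2 falls among 8 (3291 in induced and 2629 in uninduced cells). Glial markers had 1 rise among 6 (660 in induced and 443 in uninduced cells). Choroid plexus markers had 1 fall among 5 (373 in induced and 901 in uninduced cells, median log2 change 0.43). The fall was that of Folr1, at 232 normalized reads in induced cells and 797 in uninduced cells in the authors' deposited table, and the defining gene Ttr was at 0.477 normalized reads in induced cells and at 0 in uninduced cells in the authors' deposited table. The part of these marker differences in the Slc12a results was not tested. In such bulk libraries fewer cells of a type and less RNA per cell cannot be told apart.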

How the data were processed

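RNA from 2 induced and 2 uninduced libraries was sequenced, and groups follow the sample titles. The submitters' processing notes name TopHat2 2.0.8, HTSeq 0.5.4p1, DESeq, SAMtools 0.1.19 and FastQC 2.6.14 with build mm9, without roles or order. The authors' deposited table holds 2 group means, read here as normalized read counts, a signal that is never negative. It also holds the authors' fold as a ratio, log2 fold change, p-values and adjusted p-values. The deposited ratio equalled the ratio of the means in 100% of genes with both means above 0, and the deposited adjusted p a Benjamini-Hochberg adjustment in 100% of tested genes, both within a relative 1e-06. Another deposited table has 4 columns of library values whose names match no sample label, and these were not used. A limma fit was therefore not made, and the authors' DESeq test stands as the test. Library depth is unknown here.

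Computed from the table were log2 changes with a pseudocount of 1, list counts and medians, distances between genes, reads per kb, and approximate intervals. The standard error behind an interval is the size of the log2 fold change divided by the normal quantile of the authors' p, so it inherits the assumptions of that test. Named are the 4 members, the other Slc12a and kinase genes, up to 4 genes with the smallest adjusted p of each other list, the 3 nearest genes per member and Neurod1. Exceptions are stated. Members and lists were chosen with earlier results of these data known. Some genes that the naming rule takes are not reported here, and list counts, medians and sums leave them out. Of 144 list genes 143 were matched, older symbols through RefSeq synonyms. Alternatives were pseudocounts of 0.5 and 5, equal totals, a threshold of 0.01, a 2-fold minimum, a minimum mean of 10 and GENCODE lengths. On simulated normal data the adjustment recovered planted changes. The standard errors were recovered there from p-values made with the same formula, so that step checks the arithmetic only. Whether the intervals cover the true fold was not checked. Software was Python 3.11.15 with scipy 1.17.1, numpy 2.4.6, pandas 2.3.3 and matplotlib 3.10.9.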

Additional observations from a re-analysis of the deposited data

How the results depend on the processing

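The 4 members kept their direction with pseudocounts of 0.5 and 5 and with equal totals, settings that do not enter the deposited test and so leave its adjusted p as it was. They stayed past a threshold of 0.01 and past 0.05 after an adjustment over genes with a mean of 10 or more. The Slc12a5 log2 change ranged between 0.716 and 0.746 over the pseudocounts and equal totals. With a minimum of 2-fold, 0 of the 4 members were called higher, also at an unadjusted p under 0.05, and 1 lower by the authors' DESeq test. Over all genes the same minimum left 1367 higher and 767 lower, fewer by construction. The difference between the log2 changes of Slc12a5 and Slc12a2 was 1.206 and 1.174 with pseudocounts of 0.5 and 5. The share of Slc12a5 with GENCODE lengths, a setting chosen after seeing the data, was 1.59% in induced cells and 0.587% in uninduced cells. No paired analysis was possible because the deposited test gives group means only and the library columns carry no replicate numbers of the labels. For the same reason the limma fit and fits without single libraries were not run. Of the 4 members Slc12a5 had the lowest means and the widest approximate interval.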

Other observations

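Further genes of chloride and pH balance were counted in lists drawn up after the table had been examined, with calls from the authors' DESeq test. The 5 subunits of the volume-regulated anion channel, which releases chloride from swollen cells, had 3 falls and 0 rises, also at an unadjusted p under 0.05 (median log2 change -0.81). By adjusted p, falls made up 16.4% and rises 19.1% of all tested genes. Lrrc8c had 422 normalized reads in induced cells and 821 in uninduced cells (adjusted p = 3.3e-15), and Lrrc8d 821 in induced cells and 1438 in uninduced cells (adjusted p = 1.4e-15), in the authors' deposited table. Lrrc8e was at 0.448 times its uninduced mean (adjusted p = 0.00026) there, whereas the obligatory subunit gene Lrrc8a, at 1.14 times in the authors' deposited table, did not pass (adjusted p = 0.19).

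Of 5 tested genes of the cytosolic carbonic anhydrases, a family whose active enzymes supply bicarbonate, 1 rose and 2 fell. Car3 had 389 normalized reads in induced cells and 108 in uninduced cells (adjusted p = 2.1e-25), and Car2 had 3726 in induced cells and 5303 in uninduced cells (adjusted p = 1.8e-10), in the authors' deposited table. Car7, known from maturing neurons, had 13.1 normalized reads in induced cells and 15.3 in uninduced cells in the authors' deposited table (adjusted p = 0.92). Among 10 anoctamin genes 5 rose and 2 fell, while 19.1% of all tested genes rose and 16.4% fell. The anoctamin genes Ano4 and Ano5, which rose, had few reads. Their means were 25.3 and 18.2 normalized reads in induced cells and 8.23 and 2.93 in uninduced cells. The chloride channel gene Ano1 rose 3.51-fold (adjusted p = 6.5e-10) and Ano9 fell to a fold of 0.246 (adjusted p = 1.8e-15) in the authors' deposited table. Sodium-proton exchanger genes had 1 rise and 1 fall among 7 (median log2 change 0.01).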
